A study of Homo sapiens with 3 samples.

Results

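Before an mRNA leaves the nucleus, its 3′ end is cut and a poly(A) tail is added by a large complex of proteins that assembles on the new transcript. The genes described here encode 10 of these cleavage and polyadenylation factors: CPSF1, CPSF2, CPSF3, CPSF4, CPSF6, CPSF7, NUDT21, CSTF2, FIP1L1 and PCF11. They were chosen by name, as core subunits of the machinery, and all 10 were found among 39320 gene entries shared by the libraries.

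The machinery is built from modules. The polyadenylation signal module (CPSF1, CPSF4 and FIP1L1, together with WDR33) finds the hexamer AAUAAA, and the cleavage module (CPSF2 and CPSF3, with SYMPK) cuts the RNA downstream of it. Cleavage factor I (NUDT21 with CPSF6 or CPSF7) binds UGUA elements upstream, the cleavage stimulation factor (CSTF2 with CSTF1 and CSTF3) binds U-rich or GU-rich RNA downstream, and cleavage factor II (PCF11 with CLP1) links the cut to the end of transcription. Changes in the supply of several of these proteins are known to move cleavage between alternative sites of the same gene.

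RNA was sequenced from 3 libraries labelled as wild-type HepG2, a human liver cancer cell line, replicates 1 to 3. They are 1 condition, with no treated or mutant group, so the measurements describe levels, the spread between libraries and ratios between genes within a library. Levels are given in TPM, a measure of the share of all transcripts that come from a gene, and TPM values are corrected for gene length and sum to the same total in each library. In each library 13690 to 13765 genes reached 1 TPM, and no pair of libraries was a copy of another: of 13705 to 13710 expressed genes above 0 in both libraries of a pair, 0 had the same TPM in both.

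The label was checked against marker genes first. Of 10 genes for proteins that hepatocytes secrete, 9 lay below 1 TPM in every library and 6, albumin (ALB) among them, were listed at 0 in all 3. The most abundant was RBP4 at 11.0 ± 0.508 TPM (SD, n = 3), and the list summed to 11.6, 10.9 and 10.9 TPM in replicates 1, 2 and 3. The keratin genes KRT8 (2609.6 ± 28.6 TPM) and KRT18 (2017 ± 102 TPM) were abundant, as was VIM (694 ± 48.1 TPM), while CDH1 stood at 1.02 ± 0.0382 TPM and EPCAM at 0, 0 and 0.0901 TPM. Of the blood markers, PTPRC and CD3E were listed at 0, HBB reached 0.679 ± 0.123 TPM and CD68 9.41 ± 0.965 TPM. Of the other mesenchymal markers, COL1A1 stood at 6.93 ± 0.564 TPM, COL1A2 at 0.0210 ± 0.0231 TPM and SPARC at 0. Apart from RBP4, the listed liver products, of a kind that usually defines HepG2, were thus below 1 TPM in every library. The libraries are therefore called here the libraries labelled HepG2. The bearing of these marker levels on the levels below was not tested.

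All 10 factors lay above the median of the genes with 1 TPM or more. Every one reached 10 TPM in every library, a level reached by 59.2% of the 13753 expressed genes, those whose mean over the libraries was 1 TPM or more. Their median was 44.2, 41.8 and 41.8 TPM in replicates 1, 2 and 3 (42.6 ± 1.38 TPM), against a median of 15.4 TPM over those 13753 genes and 19.5 TPM over the 11315 protein-coding genes among them. Ranked among the same 13753 genes, the factors lay between the 53.5th percentile (PCF11) and the 87.0th (CPSF7), with a median percentile of 75.4. Among the 8419 genes whose mean reached 10 TPM the median percentile was 59.7, and 4 factors lay below the middle: PCF11 (24.02), FIP1L1 (29.4), CPSF1 (34.5) and CPSF3 (45.1). These are bulk RNA levels, so fewer cells that express a gene and less of its RNA per cell cannot be told apart.

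The factors differed in level by several times. Within a library the highest exceeded the lowest by 4.85, 4.70 and 4.94 times by TPM in replicates 1, 2 and 3. By depth-scaled coverage, described further on, the means ran from 35.8 (CPSF7) to 5.48 (CPSF3), a wider spread. By mean TPM, CPSF7 came first and NUDT21 next, followed by CSTF2, CPSF4, CPSF2 and CPSF6, whose neighbouring values overlapped between libraries. CPSF3, CPSF1, FIP1L1 and PCF11 followed, each with values wholly below those of the gene before it. In all, 6 of the 9 neighbouring pairs in this order did not overlap.

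**Figure D1:**
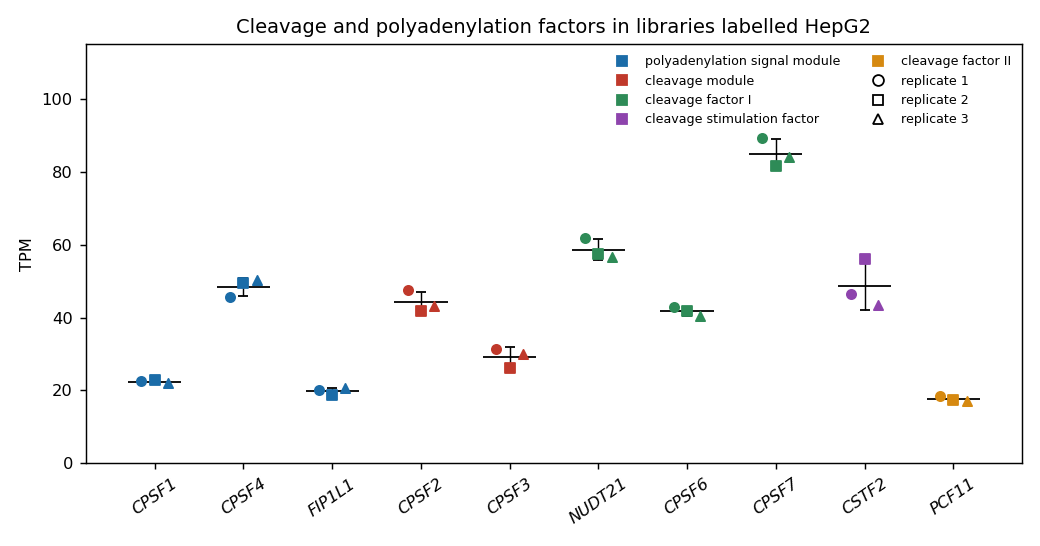
TPM of each factor (vertical axis) in replicate 1 (circle), 2 (square) and 3 (triangle), coloured by module, with the mean as a horizontal line and the SD as the error bar. CPSF7 and NUDT21 of cleavage factor I lie highest, PCF11 and FIP1L1 lowest, and CSTF2 has the widest spread because of replicate 2 at 56.1 TPM.

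Cleavage factor I held the most abundant factor, CPSF7, and the next, NUDT21. CPSF7 (chr11:61402648-61429992, minus strand), a large subunit, gave 89.2, 81.6 and 84.0 TPM (84.9 ± 3.92). NUDT21 (chr16:56429133-56451332, minus strand), the small subunit that contacts UGUA, gave 61.9, 57.4 and 56.5 TPM (58.6 ± 2.88). CPSF6 (chr12:69239537-69274358, plus strand), the alternative large subunit, gave 42.8, 41.7 and 40.5 TPM (41.7 ± 1.19). The order CPSF7, NUDT21, CPSF6 thus held in each library without overlap. The log2 ratio of CPSF7 to NUDT21, on the scale of TPM plus a pseudocount of 1, was 0.53 ± 0.03, and that of CPSF6 to NUDT21 was -0.48 ± 0.03. CPSF6 stood at a log2 ratio of -1.01 ± 0.05 to CPSF7. RNA of the pair of large subunits together was 2.13, 2.15 and 2.20 times that of NUDT21 in the 3 libraries (2.16 ± 0.0376).

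In the cleavage module, the RNA of the nuclease was lower than that of its partner. CPSF3 (chr2:9423537-9473110, plus strand), the endonuclease that makes the cut, gave 31.4, 26.1 and 29.98 TPM (29.2 ± 2.71). CPSF2 (chr14:92121954-92164199, plus strand), its relative without nuclease activity, gave 47.5, 41.8 and 43.2 TPM (44.2 ± 2.94). CPSF3 was the lower in all 3 libraries, with a log2 ratio of -0.58 ± 0.07 by TPM and -1.74 ± 0.06 by coverage, a measure described further on, so the size of the difference depended on the measure. Both genes were highest in replicate 1 and lowest in replicate 2. SYMPK, the scaffold of this module, stood at 52.6 ± 0.404 TPM, the smallest SD relative to its mean of the genes named in these modules.

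The letters that this machinery reads on other mRNAs can be looked for at the ends of its own genes. The last 50 bases of each gene as annotated in the deposited tables were read from GRCh38 and searched on the coding strand for AATAAA, the DNA letters of the canonical poly(A) signal, and for ATTAAA, its most common variant. AATAAA occurred in 6 of the 10 factors (CPSF3, NUDT21, CPSF6, CPSF7, CSTF2 and PCF11), against 64.4% of the 11315 expressed protein-coding genes. CPSF2 and CPSF4 had ATTAAA without AATAAA, as did 14.8% of those genes, and CPSF1 and FIP1L1 had neither, as did 20.8%. In FIP1L1 the nearest AATAAA began 57 bases before the end, just outside the window. TGTA, the DNA form of the element bound by cleavage factor I, lay in the last 100 bases of 7 factors and of 54.4% of the coding genes. The factors' own ends therefore held these letters about as often as other genes did, and no match here is shown to be used.

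The hexamer began 22 to 37 bases before the end of the gene in the factors that had one within 50 bases. Windows of 30 bases are shown for the subunits of cleavage factor I and the nuclease, which have the canonical hexamer, and for both factors with the variant, 5′ to 3′ on the coding strand of GRCh38, with the hexamer in capitals. These 6 hexamers lie in sequence that GENCODE annotates as untranslated in the gene, as does that of PCF11, while that of CSTF2 lies outside its annotated untranslated and coding sequence.
NUDT21, chr16:56429138-56429167, minus strand: tattgtcatttcAATAAAaaatatttgaaa
CPSF6, chr12:69274324-69274353, plus strand: tcttgtattgaaAATAAAacaaacttttga
CPSF7, chr11:61402659-61402688, minus strand: atatttttaaatAATAAAtggggtgtgagc
CPSF3, chr2:9473062-9473091, plus strand: tttgttacctaaAATAAAatgcattcgttt
CPSF2, chr14:92164163-92164192, plus strand: gactgtgagtcaATTAAAcgtgtttacttt
CPSF4, chr7:99457343-99457372, plus strand: tttatgaaatggATTAAAgcttgtttttta

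**Figure D2:**
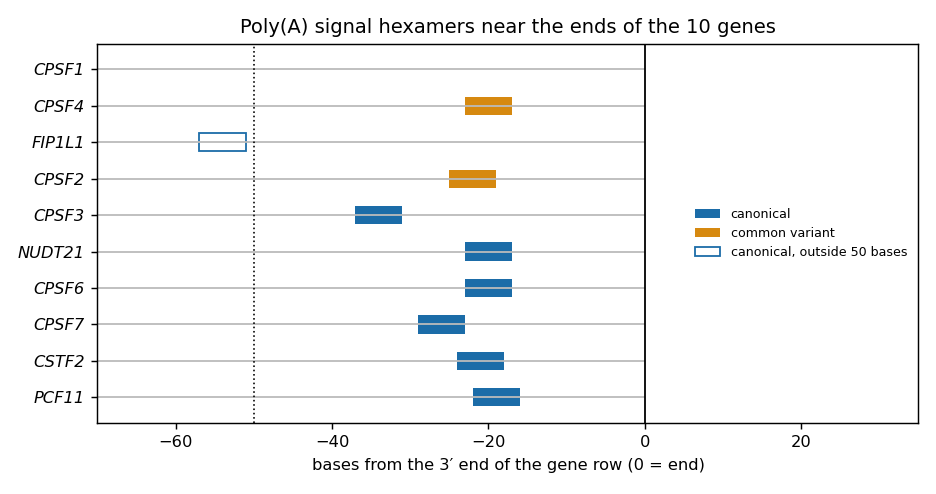
Position of the poly(A) signal hexamer in bases from the annotated 3′ end of each gene (horizontal axis, 0 is the end); filled bars are the canonical hexamer or its common variant, and the dotted line marks the limit of 50 bases. The bars begin 22 to 37 bases before the end in 8 genes, FIP1L1 has the canonical hexamer at 57 bases (open bar), and CPSF1 has none in view.

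By TPM, CSTF2 of the cleavage stimulation factor differed most between libraries of the 10 factors; by coverage it differed least, as given further on. CSTF2 (chrX:100820359-100843534, plus strand), the subunit that binds the downstream element, gave 46.6, 56.1 and 43.4 TPM (48.7 ± 6.62). Replicate 2 was thus 1.25 times the mean of replicates 1 and 3. CSTF2T, an intronless paralog of CSTF2, gave 45.6, 44.6 and 44.01 TPM (44.8 ± 0.825), level in all 3. Their log2 ratio was 0.03, 0.32 and -0.02 in replicates 1, 2 and 3 (0.11 ± 0.19), so by TPM the paralogs did not differ beyond their spread; by coverage they did, as given further on. CSTF3, the subunit that bridges the others, gave 45.1, 49.3 and 53.3 TPM, and CSTF1 stood at 34.7 ± 1.07 TPM. CSTF2 and CSTF2T together were 2.05, 2.04 and 1.64 times CSTF3, with replicate 3 the lowest.

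Cleavage factor II held the least abundant factor by TPM, though not by coverage. PCF11 (chr11:83157095-83185794, plus strand), which binds the tail of RNA polymerase II, gave 18.4, 17.4 and 17.0 TPM (17.6 ± 0.725), the lowest of the factors in each library. CLP1, its partner, stood at 28.4 ± 1.18 TPM, and the log2 ratio of PCF11 to CLP1 was -0.66 ± 0.08. PCF11 was lower in all 3 libraries.

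In the polyadenylation signal module, the small RNA-binding subunit stood above the scaffold. CPSF4 (chr7:99438912-99457377, plus strand), a zinc finger protein that contacts the hexamer, gave 45.5, 49.5 and 50.1 TPM (48.4 ± 2.49). CPSF1 (chr8:144393231-144409400, minus strand), the scaffold, gave 22.5, 22.9 and 22.0 TPM (22.4 ± 0.440). FIP1L1 (chr4:53377572-53462611, plus strand), which binds U-rich RNA and poly(A) polymerase, gave 20.2, 18.9 and 20.6 TPM (19.9 ± 0.898). By TPM, CPSF1 and FIP1L1 lay below CPSF4 in every library, with log2 ratios of -1.07 ± 0.08 and -1.24 ± 0.11. WDR33, the other subunit that contacts the hexamer, lay between CPSF4 and CPSF1 by TPM, at 38.8 ± 2.12. The direction of both ratios to CPSF4 and the place of WDR33 depended on the measure used, as the coverage values further on show.

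The 8 ratios between subunits were each tested over the 3 libraries by flipping their signs in every combination, an exact permutation test that is two-sided. For 7 of them the direction held in 3 of 3 libraries, with p = 0.25, the smallest p that 3 libraries allow in this exact test, and 0.286 after Benjamini-Hochberg adjustment over the 8 ratios. For CSTF2 to CSTF2T, where 2 of 3 libraries had the same sign, the exact test gave p = 0.5 and an adjusted 0.5. No ratio could reach 0.05 in this exact test, so its p-values do not separate the ratios.

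The tables also give the coverage of each gene, taken here as the mean number of reads over a base, which is not corrected for depth. The factors' coverage ranged from 63.3 (CPSF3, replicate 2) to 495 (CPSF7, replicate 1), so on that reading none of the levels rests on few reads. Coverage was put on 1 scale by dividing it by the library's highest ratio of coverage to FPKM (13.3, 12.8 and 11.5 in replicates 1, 2 and 3), a ratio reached within 1% by 22.9% to 23.0% of gene entries above 1 FPKM. FPKM values, scaled for gene length and library size, are proportional to TPM within a library. The resulting depth-scaled coverage equals a gene's FPKM where the ratio is at its highest and is lower elsewhere.

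The factors differed widely in how far their coverage followed their TPM. NUDT21 was at the highest ratio in all 3 libraries, and CPSF2, CPSF6 and PCF11 were above 0.95 of it. CPSF1 stood at 0.925, 0.927 and 0.931 of the highest ratio, CPSF7 at 0.884, 0.882 and 0.887, and FIP1L1 at 0.839, 0.859 and 0.791. CPSF3 (0.394, 0.394 and 0.394) and CPSF4 (0.308, 0.310 and 0.307) were far lower and steady. CSTF2 was the exception, at 0.471, 0.382 and 0.484 of the highest ratio, lowest in replicate 2. RefSeq lists 1 transcript for NUDT21, 4 each for CPSF2 and CSTF2, 5 each for CPSF6 and PCF11, 6 for CPSF3, 13 each for CPSF1 and CPSF4, 25 for CPSF7 and 60 for FIP1L1. The highest ratio was also that of CSTF2T and SSU72, and of LSM10 and LSM11 of histone mRNA processing, for which RefSeq has a single transcript each. How the coverage of a gene with several transcripts was computed was not given in the sources used here, and the part of the transcripts in these ratios was not tested.

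**Figure D3:**
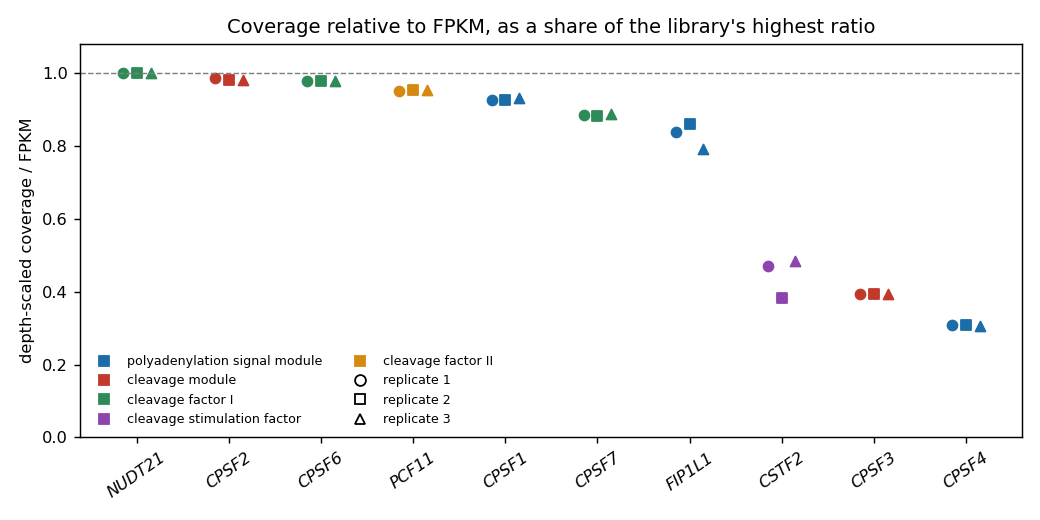
Depth-scaled coverage divided by FPKM (vertical axis, 1 is the library's highest ratio) for each factor in replicates 1 (circle), 2 (square) and 3 (triangle), coloured by module. CSTF2, CPSF3 and CPSF4 lie below 0.5, and CSTF2 in replicate 2 stands apart from its other libraries at 0.382.

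The high CSTF2 value of replicate 2 was present in TPM and absent from coverage. Its depth-scaled coverage was 10.4, 10.3 and 10.1 in replicates 1, 2 and 3, so that replicate 2 was 1.00 times the mean of the others. The range of CSTF2 over the libraries, as the highest minus the lowest log2 of the value plus 1, was 0.36 by TPM and 0.04 by depth-scaled coverage. In 8419 genes whose mean reached 10 TPM, a range as large as that of CSTF2 or larger was seen in 3.21% by TPM and in 89.1% by depth-scaled coverage. CSTF2 was singled out as the factor with the largest range by TPM, so the 3.21% is not the rarity of a gene chosen beforehand. Why the measures parted in this library was not tested.

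Taken as a set, the factors varied between libraries about as other genes do. A range above 0.2 by TPM was found for 2 factors, CSTF2 (0.36) and CPSF3 (0.25), against 21.9% of the 8419 genes. By depth-scaled coverage it was found for 1, CPSF3 (0.20, just past the limit), against 10.2%. Their median range was 0.13 by TPM, as over all 8419 genes, and 0.09 by depth-scaled coverage, against 0.10. The median coefficient of variation was 4.76% for the factors and 4.88% for all 8419 genes. The count by TPM depended on the libraries used: 0 factors passed 0.2 without replicate 2 (16.1% of genes), 1 without replicate 1 (4.82%) and 2 without replicate 3 (11.1%). CPSF1 was the steadiest factor by TPM, with a coefficient of variation of 1.96%, and CSTF2 the least steady at 13.6%.

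**Figure D4:**
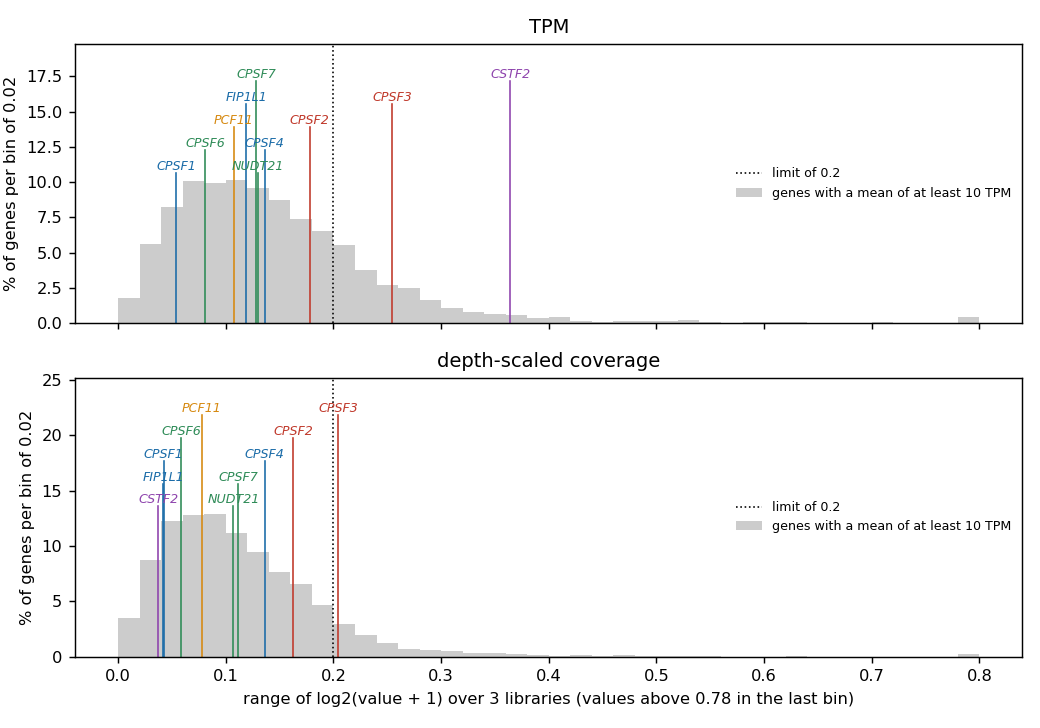
Range of log2(value + 1) over the 3 libraries (horizontal axis) by TPM (top) and by depth-scaled coverage (bottom); grey bars give the percentage in each bin of the 8419 genes whose mean reached 10 TPM, coloured lines mark the factors, and the dotted line is the limit of 0.2. CSTF2 moves from 0.36 by TPM to 0.04 by coverage, while CPSF3 is above the limit in both.

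Coverage also changed the order of the factors. By depth-scaled coverage CPSF7 (35.8 ± 1.43) and NUDT21 (27.9 ± 1.15) stayed first, and PCF11 (7.995 ± 0.252) was no longer last. CPSF4 (7.11 ± 0.421) and CPSF3 (5.48 ± 0.479) took the lowest places. The log2 ratio of CPSF1 to CPSF4 was 0.43 and that of FIP1L1 to CPSF4 0.13, both opposite in sign to those by TPM. The ratio of CSTF2 to CSTF2T was likewise turned, to -0.99 ± 0.0044. WDR33, at a depth-scaled coverage of 3.92 ± 0.203, lay below all 10 factors. The ratios within cleavage factor I kept their signs (0.35 for CPSF7 to NUDT21, -0.50 for CPSF6 to NUDT21 and -0.85 for CPSF6 to CPSF7), as did PCF11 to CLP1 (-0.67). CPSF3 to CPSF2 kept its sign and was larger in size. Of the 8 ratios, 5 thus read the same way on both scales, and the ratios to CPSF4 and between the CSTF2 paralogs did not. SYMPK, above CPSF2 by TPM, lay below it by depth-scaled coverage in all 3 libraries (19.0 ± 0.0315 against 20.7 ± 1.28).

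Other genes of mRNA 3′ end formation spanned a wider range of levels than the factors, with a similar median by TPM. Of 15 further genes, listed from textbook knowledge, 12 reached 10 TPM in every library, against 59.2% of the expressed genes, and the median of the list was 40.8 TPM. The most abundant were SSU72, a phosphatase of the RNA polymerase II tail (146 ± 3.08 TPM), PABPN1, the nuclear poly(A)-binding protein (139.6 ± 2.92 TPM), and PAPOLA, the main poly(A) polymerase (105, 91.0 and 90.2 TPM). PAPOLG, a related polymerase, stood at 3.82 ± 0.362 TPM, far below PAPOLA in every library. XRN2, the exonuclease that follows the cut (49.4 ± 3.36 TPM), and RBBP6, needed for cleavage (40.8 ± 1.57 TPM), lay close to the median of the factors. SCAF8 and SCAF4, which bind the polymerase tail and guard against early cleavage, were lower at 16.4 ± 0.827 and 10.3 ± 0.960 TPM. CPSF4L, a relative of CPSF4, was listed at 0, 0.0962 and 0 TPM. By depth-scaled coverage SSU72 (69.5 ± 1.14) was still above all 10 factors, but 1 factor, CPSF7, exceeded PABPN1 (33.2 ± 0.775), 7 exceeded PAPOLA (7.93 ± 0.608) and 10 exceeded XRN2 (2.98 ± 0.178). PAPOLG (1.49 ± 0.0399) stayed below PAPOLA on that scale. In this list 3 of 15 genes had a range above 0.2 by TPM (CSTF3, PAPOLA and SCAF4), against 21.9% of the 8419 genes, and 0 of 15 by depth-scaled coverage, against 10.2%. PAPOLG and CPSF4L, with means below 10 TPM, are in the list but not among the 8419 genes.

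**Figure D5:**
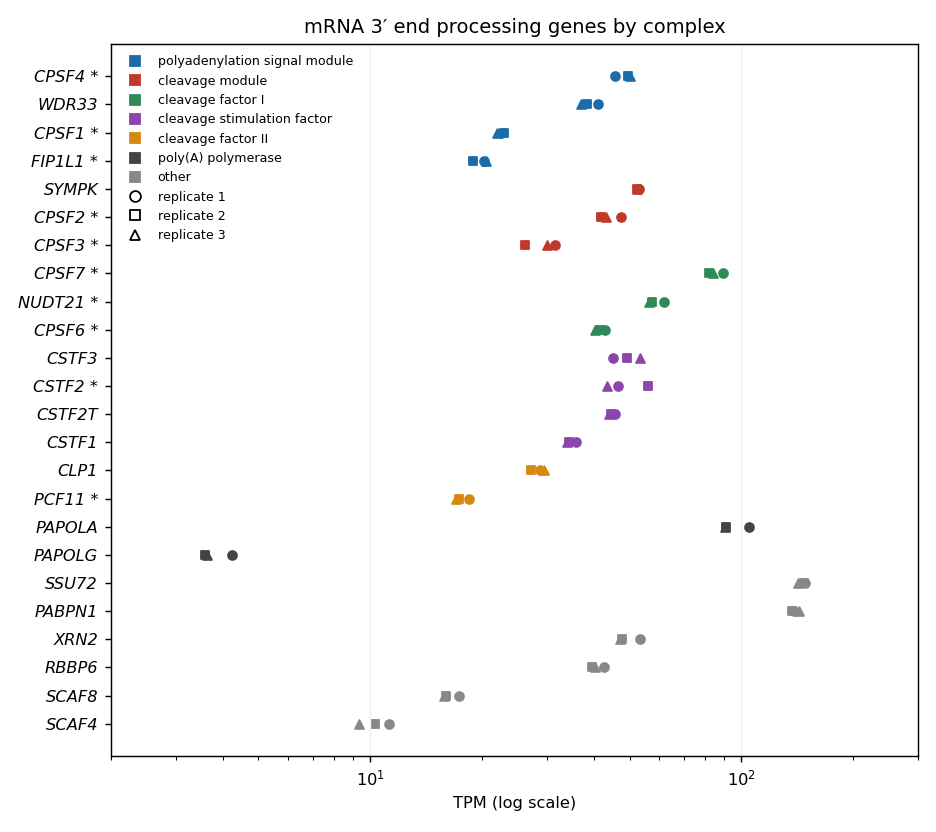
TPM (horizontal axis, log scale) of the 10 factors (asterisks) and 14 of the 15 other genes of 3′ end formation, grouped by complex, in replicates 1 (circle), 2 (square) and 3 (triangle); CPSF4L, at or near 0, is not drawn. SSU72, PABPN1 and PAPOLA lie above all 10 factors by TPM, though only SSU72 does by depth-scaled coverage, and PAPOLG and SCAF4 lie below them on both scales.

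Several factors lie close to another gene on the opposite strand. The start of 6 of the 10 was within 1000 bp of the start of an entry on the other strand, against 30.2% of the 11315 expressed protein-coding genes. In 5 of these 6 the partner is a protein-coding gene: NDUFB1 for CPSF2 (248 bp between the starts), ITGB1BP1 for CPSF3 (32 bp), PTCD1 for CPSF4 (73 bp), SDHAF2 for CPSF7 (133 bp) and OGFOD1 for NUDT21 (148 bp). The share of all expressed genes with a protein-coding partner was not computed, so nothing is read from this count. The partners gave 74.1 ± 2.64 TPM for ITGB1BP1, 72.0 ± 0.544 for SDHAF2, 46.2 ± 0.989 for OGFOD1 and 16.9 ± 1.76 for PTCD1, so both genes of each pair were expressed. NDUFB1, a subunit of mitochondrial complex I, gave 128, 189 and 205 TPM, a range of 0.67 in log2 against 0.18 for CPSF2. CPSF2 was highest in replicate 1, where NDUFB1 was lowest, but CPSF2 was lowest in replicate 2 and NDUFB1 highest in replicate 3. CPSF3, NUDT21, CPSF6, CPSF7 and PCF11 were also highest in replicate 1, while CPSF1, CPSF4, FIP1L1 and CSTF2 were not. A relation between the levels of CPSF2 and NDUFB1 was not tested. The entry beside FIP1L1, LOC105377654, was listed at 0 in all 3 libraries.

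The paired starts place the upstream sequence of one gene beside that of the other, and 3 such regions are shown. RefSeq promoters of GRCh38.p14, 250 bases before to 50 after the start, were matched for 9 of the factors. CCGGAAG, letters of the kind that ETS family factors bind, was searched on both strands after the sequences had been read. It occurred in 4 of the 9 (CPSF3, NUDT21, CPSF7 and CSTF2), against 10.3% of 35116 promoters, a share of promoters rather than genes. Because the letters were picked from these same sequences, no excess can be read from this comparison. The 3 regions shown all hold CCGGAAG, while the promoters of CPSF2, CPSF4 and FIP1L1, also paired starts, do not. TATAAA was found on the coding strand in 0 of the 9, against 7.33% of all promoters, and CpG pairs numbered 16 to 43, against a median of 14. The promoters compared were not limited to expressed protein-coding genes, which the factors are. These values therefore do not show a trait particular to the factors. A match is a description of letters and shows no binding. The sequences run 5′ to 3′ in the direction of the factor, with CCGGAAG or its reverse complement in capitals.
NUDT21, chr16:56451283-56451582, minus strand: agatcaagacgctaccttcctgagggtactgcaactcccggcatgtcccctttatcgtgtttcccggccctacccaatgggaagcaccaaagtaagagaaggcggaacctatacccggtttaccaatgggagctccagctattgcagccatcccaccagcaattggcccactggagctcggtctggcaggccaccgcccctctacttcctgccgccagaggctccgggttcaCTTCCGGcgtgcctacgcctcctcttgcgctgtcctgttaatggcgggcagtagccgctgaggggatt
CPSF7, chr11:61429926-61430225, minus strand: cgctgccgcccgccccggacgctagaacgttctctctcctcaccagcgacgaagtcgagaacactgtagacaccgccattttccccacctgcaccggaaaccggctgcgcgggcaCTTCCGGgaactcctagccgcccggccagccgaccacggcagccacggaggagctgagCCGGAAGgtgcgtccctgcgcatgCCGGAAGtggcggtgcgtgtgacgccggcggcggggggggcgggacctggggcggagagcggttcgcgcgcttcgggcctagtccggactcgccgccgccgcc
CPSF3, chr2:9423404-9423703, plus strand: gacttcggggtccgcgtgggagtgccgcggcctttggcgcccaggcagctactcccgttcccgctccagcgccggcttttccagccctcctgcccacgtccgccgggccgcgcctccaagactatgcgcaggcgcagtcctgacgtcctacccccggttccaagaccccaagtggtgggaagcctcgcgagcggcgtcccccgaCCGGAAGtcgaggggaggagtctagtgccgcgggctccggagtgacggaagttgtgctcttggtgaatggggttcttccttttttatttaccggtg

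For 7 of the 10 factors another gene entry, on either strand, overlaps the factor itself, against 48.8% of the 11315 expressed protein-coding genes. The strand setting behind the deposited values was not given in the sources used here, so reads of such pairs may not be separated. The longest overlap is that of the readthrough entry ATP5MF-PTCD1, which spans all 18466 bp of CPSF4 on the other strand and was listed at 0, 3.94 and 0 TPM. LOC100506282 overlaps the end of PCF11 by 1304 bp on the other strand and gave 12.3 ± 0.858 TPM, below the 17.6 TPM of PCF11 itself. PCF11-AS1 overlaps PCF11 by 274 bp (2.27 ± 0.159 TPM), and LNX1 overlaps FIP1L1 by 4348 bp (0.0945 ± 0.0501 TPM). NOX1 overlaps CSTF2 by 211 bp and was listed at 0 in all 3 libraries. ITGB1BP1, the partner of CPSF3, overlaps it by 33 bp. Only LOC100506282 and ITGB1BP1, among the overlapping entries, had a mean of 10 TPM or more, and how far their reads entered the levels of PCF11 and CPSF3 was not tested.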

How the data were processed

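PolyA RNA was sequenced, per the labels. The annotation and the strand setting were not given in the sources used here. According to the submitters' processing notes and the methods, reads were checked and trimmed with FastQC 0.11.8 and Trim Galore 0.6.2 and mapped to GRCh38 with STAR 2.6.1a; StringTie is named without role or version. The deposited per-gene tables, 1 per library, give TPM, FPKM and coverage as the authors made them, the last unscaled for depth. Sequencing depth in reads was not given in the tables, so no counting interval or count model was used.

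Members and lists were chosen with earlier results of these data known. Named genes were the 10 factors, 15 further genes of 3′ end formation, 6 related genes, overlapping or adjoining entries and 4 marker lists. Entries on assembled chromosomes were joined on identifier and position. Ratios were computed as log2 of TPM plus 1 within a library, with an SD over 3 libraries. Alternatives were each replicate left out, median-of-ratios scaling, mitochondrially encoded genes removed, FPKM or coverage in place of TPM, a pseudocount of 0.1 and other limits. Depth-scaled coverage for the range was added after the data were seen. Nothing says that the replicates came from separate cultures, so the spread and p-values may be technical. The calculation of ranges was checked on simulated data with noise much smaller than the spread seen here. That checks the arithmetic and has no bearing on the limit of 0.2. Of the 10 factors, 1 had the same start and end in RefSeq GRCh38.p14 as in the tables. Python 3.11.15, numpy 2.4.6, pandas 2.3.3, matplotlib 3.10.9 and pysam 0.24.0 were used.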

Additional observations from a re-analysis of the deposited data

How the results depend on the processing

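Of 48 alternatives for the ratios between subunits, 45 kept the direction. That count includes CSTF2 to CSTF2T without replicate 2, where the ratio by TPM fell from 0.11 to 0.0036 and so had hardly any direction. For ratios with the same sign in every library, a left-out replicate, FPKM or a pseudocount of 0.1 could not turn the direction. Of the settings tried, only coverage could turn those ratios, so the count of 45 says little about how firm they are. The 3 alternatives that turned the direction all used coverage. They gave 0.43 for CPSF1 to CPSF4, 0.13 for FIP1L1 to CPSF4 and -0.99 for CSTF2 to CSTF2T. The cause was not tested. All 10 factors kept at least 10 TPM in every library under each scaling and left-out replicate. None of these settings could have lowered that count. A left-out replicate can only relax the limit, and the lowest value of any factor was 17.0 TPM (PCF11, replicate 3). Median-of-ratios scaling divided TPM by 0.979 to 1.03, and removing mitochondrially encoded genes raised it. With all 3 libraries and TPM as deposited, 8 factors reached a limit of 20 TPM in every library, as did 41.5% of the expressed genes. The median of 42.6 TPM became 53.3 without mitochondrially encoded genes, which held 19.9% to 20.3% of TPM, and 20.3 in FPKM, which is another unit; it stayed within 41.8 to 43.0 when a replicate was left out. The count of 2 factors with a range above 0.2 ranged over 0 to 2 across the left-out replicates and became 3 with median-of-ratios scaling (16.2% of genes), 8 for a range above 0.1 (64.3%), 1 above 0.3 (5.77%) and 1 by depth-scaled coverage, an alternative chosen after seeing the data. Neighbours in the order of levels did not overlap in 6 to 8 of 9 pairs when a replicate was left out, though fewer libraries leave less room for overlap. Percentiles moved by more than the SD in 30 of 30 alternatives, which changed the set of genes ranked or used coverage. No paired analysis was possible because there was no other condition to pair libraries with; the ratios compare genes within a library. Read depth was not given, so no detection limit can be stated for genes listed at 0.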

Other observations

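Histone mRNAs that end in a stem-loop use part of the same machinery, with its own recognition factors. SLBP, which binds the stem-loop, stood at 70.1 ± 5.67 TPM, and LSM10, a subunit of the small nuclear particle that pairs with histone RNA, at 63.7 ± 3.61 TPM. LSM11, the partner of LSM10 in that particle, stood at 5.36 ± 0.402 TPM, and ZNF473, which acts with them, at 9.06 ± 0.304 TPM. The levels within this group were thus spread more widely than those of the 10 cleavage and polyadenylation factors.

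The Integrator complex, which cuts the ends of small nuclear RNAs, contains relatives of CPSF3 and CPSF2. INTS11, the relative of the nuclease CPSF3, gave 60.1, 61.9 and 60.0 TPM, and INTS9, the relative of CPSF2, gave 12.7, 11.5 and 12.2 TPM. The relative of the nuclease was therefore the more abundant of the Integrator pair in each library, while CPSF3 was the less abundant of its own pair by TPM.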
